A study of Homo sapiens with 8 samples.

Results

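The unfolded protein response and the protein folding machinery of the endoplasmic reticulum (ER) were examined through 40 listed genes in human breast cancer cells. The members were taken by gene symbol, with every probe annotated to them, and 39 of the 40 had a probe on each of 2 platforms. Of 18852 genes with a probe on the Illumina arrays, 12490 lay above a filter on low values and were tested, 36 of them members. Of 19775 genes on the Affymetrix arrays, 12923 were tested, 39 of them members. HERPUD1 was not analysed on the Illumina arrays and SYVN1 was not analysed on the Affymetrix arrays, and PDIA3, ERN1 and EIF2AK3 lay below the Illumina filter.

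Total RNA was profiled on 8 arrays, 2 for each of 4 groups. LM2-miR126 cells, in which the microRNA miR-126 was over-expressed, were set against LM2 control cells on Affymetrix arrays. LM2 cells, labelled highly metastatic, were set against MDA-MB-231 cells, labelled poorly metastatic, on Illumina arrays. MDA-MB-231 is an established triple-negative breast cancer line, and LM2 is a lung-metastatic derivative of it. The same DMEM medium with serum was used for all 4 groups, and the labels give neither the vector that carried miR-126, nor what the control cells carried, nor the number of clones. The labels do not state whether the 2 arrays of a group, called A and B, were cultured separately, so a p-value here reflects no more than how far these samples differ, and that spread may be technical. Each comparison was made within its own platform. Affymetrix levels are log2 values relative to the array's median, and Illumina levels are log2(intensity + 16), so Illumina fold changes of dim genes are understated.

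The ER is where secreted and membrane proteins fold. When unfolded proteins accumulate, the chaperone BiP leaves 3 membrane sensors, IRE1, PERK and ATF6, which together switch on the unfolded protein response. IRE1 splices the mRNA of the transcription factor XBP1, PERK slows translation by phosphorylating eIF2 alpha, and ATF6 is cut in the Golgi to free a transcription factor. Their targets include chaperones, disulfide isomerases and the machinery of ER-associated degradation, which returns misfolded proteins to the cytosol for the proteasome. Secretory cells and many tumour cells rely on this response.

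Promoter windows of RefSeq on GRCh38.p14, from 250 bases before a gene's start to 50 after it, were found for 36 of the 40 members. They are shown because known response elements lie in this stretch, and because these 5 members had the largest negative differences in LM2-miR126 cells. Capitals mark the fixed bases of matches to 3 elements, searched on both strands. The ER stress response element (ERSE) was written as CCAAT and CCACG with 9 bases between, ERSE-II as ATTGG and CCACG with 1 base between, and the XBP1-type element as TGACGTGG. HSPA5 lies at chr9:125241294-125241593 on the minus strand, HERPUD1 at chr16:56931892-56932191 on the plus strand, HYOU1 at chr11:119057156-119057455 on the minus strand, SDF2L1 at chr22:21642052-21642351 on the plus strand and DNAJB9 at chr7:108569624-108569923 on the plus strand. Each is printed along the strand of its gene.
HSPA5: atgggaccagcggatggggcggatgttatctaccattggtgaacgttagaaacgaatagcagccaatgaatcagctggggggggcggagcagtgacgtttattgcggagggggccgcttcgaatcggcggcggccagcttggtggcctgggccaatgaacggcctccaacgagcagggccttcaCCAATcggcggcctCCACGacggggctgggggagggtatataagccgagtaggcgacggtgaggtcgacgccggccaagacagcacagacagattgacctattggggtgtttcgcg
HERPUD1: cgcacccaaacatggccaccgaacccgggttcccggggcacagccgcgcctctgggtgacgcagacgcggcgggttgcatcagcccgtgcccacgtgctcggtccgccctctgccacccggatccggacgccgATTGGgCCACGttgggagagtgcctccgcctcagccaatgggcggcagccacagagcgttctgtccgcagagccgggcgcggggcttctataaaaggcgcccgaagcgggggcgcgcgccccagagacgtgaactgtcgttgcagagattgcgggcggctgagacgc
HYOU1: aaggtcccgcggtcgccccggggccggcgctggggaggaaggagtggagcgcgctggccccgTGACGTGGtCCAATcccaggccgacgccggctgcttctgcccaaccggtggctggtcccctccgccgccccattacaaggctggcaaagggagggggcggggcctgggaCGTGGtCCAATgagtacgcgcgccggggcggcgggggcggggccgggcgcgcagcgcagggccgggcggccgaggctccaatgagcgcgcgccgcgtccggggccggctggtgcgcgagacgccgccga
SDF2L1: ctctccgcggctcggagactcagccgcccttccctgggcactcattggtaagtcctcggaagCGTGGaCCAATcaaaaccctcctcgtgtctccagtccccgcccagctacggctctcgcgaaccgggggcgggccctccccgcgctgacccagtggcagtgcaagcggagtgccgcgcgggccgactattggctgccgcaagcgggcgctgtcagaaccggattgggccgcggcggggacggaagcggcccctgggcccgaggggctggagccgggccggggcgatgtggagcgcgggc
DNAJB9: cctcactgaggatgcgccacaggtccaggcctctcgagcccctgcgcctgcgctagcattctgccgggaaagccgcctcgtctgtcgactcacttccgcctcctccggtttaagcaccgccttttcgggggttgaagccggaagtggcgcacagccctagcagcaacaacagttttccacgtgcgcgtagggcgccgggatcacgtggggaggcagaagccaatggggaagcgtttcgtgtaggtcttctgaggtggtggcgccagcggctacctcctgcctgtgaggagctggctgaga
The HSPA5 window held 1 ERSE match, starting 66 bases before the gene's start. HERPUD1 held 1 ERSE-II match, SDF2L1 held 1 on the opposite strand, and HYOU1 held 2 on the opposite strand, the distal one overlapping an XBP1-type match. The DNAJB9 window held no full match to any of the 3 elements.

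ERSE matches were also found in 7 further members, and the matched stretches are given for their spacing and for comparison with HSPA5. They are printed along the strand of the element, HSP90B1 having 2.
HSP90B1: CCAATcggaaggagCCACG
HSP90B1: CCAATcgcgccgcaCCACG
CALR: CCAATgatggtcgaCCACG
CANX: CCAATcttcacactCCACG
PDIA6: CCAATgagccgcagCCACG
CRELD2: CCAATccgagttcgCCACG
XBP1: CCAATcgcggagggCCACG
SERP1: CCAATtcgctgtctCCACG
In all, 8 of the 36 members with a window (22.2%) held an ERSE, against 27 of 35116 windows in the whole table (0.0769%). ERSE-II was found in 3 members (8.33%), against 19 windows (0.0541%). The XBP1-type element occurred in 2 members, HYOU1 and DNAJC10 (5.56%), against 256 windows (0.729%). An ATF4-type element, TGATGNAAT, occurred in 0 of the 36 members, against 348 windows (0.991%). Members were counted by gene, with a match in any of their windows, but the whole table by window, the members' windows included. The shares are therefore not of like units. A match is a description of letters and not of binding. ERSE and ERSE-II were searched as known response elements of ER stress genes, so their higher share among the members is not an independent result.

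The first comparison asked how the ER folding genes differed between LM2-miR126 and LM2 control cells. Of the 39 members tested, 23 (59.0%) lay lower on both LM2-miR126 arrays than on both control arrays, against 19.0% of the 12923 genes tested. Another 3 members (7.69%) lay higher on both arrays, against 21.4% of all genes, and 13 overlapped. The largest differences were those of HERPUD1, DNAJB9, SDF2L1, HYOU1 and HSPA5. The median difference over the members was -0.15 log2, against 0.02 log2 over all genes tested.

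No member passed the test in limma at an adjusted p of 0.05, and neither did any other gene, so the called share was 0% in either direction. At an unadjusted p under 0.05, limma gave 11 members lower (28.2%) against 4.44% of all genes, and 1 higher (2.56%) against 3.37%. The members were listed with results of these data known, so their share has no p of its own. LM2-miR126 arrays differed from each other by 0.284 log2 on average over all genes, and the control arrays by 0.0871 log2. In bulk RNA, fewer cells of a kind and less RNA per cell cannot be told apart.

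**Figure D1:**
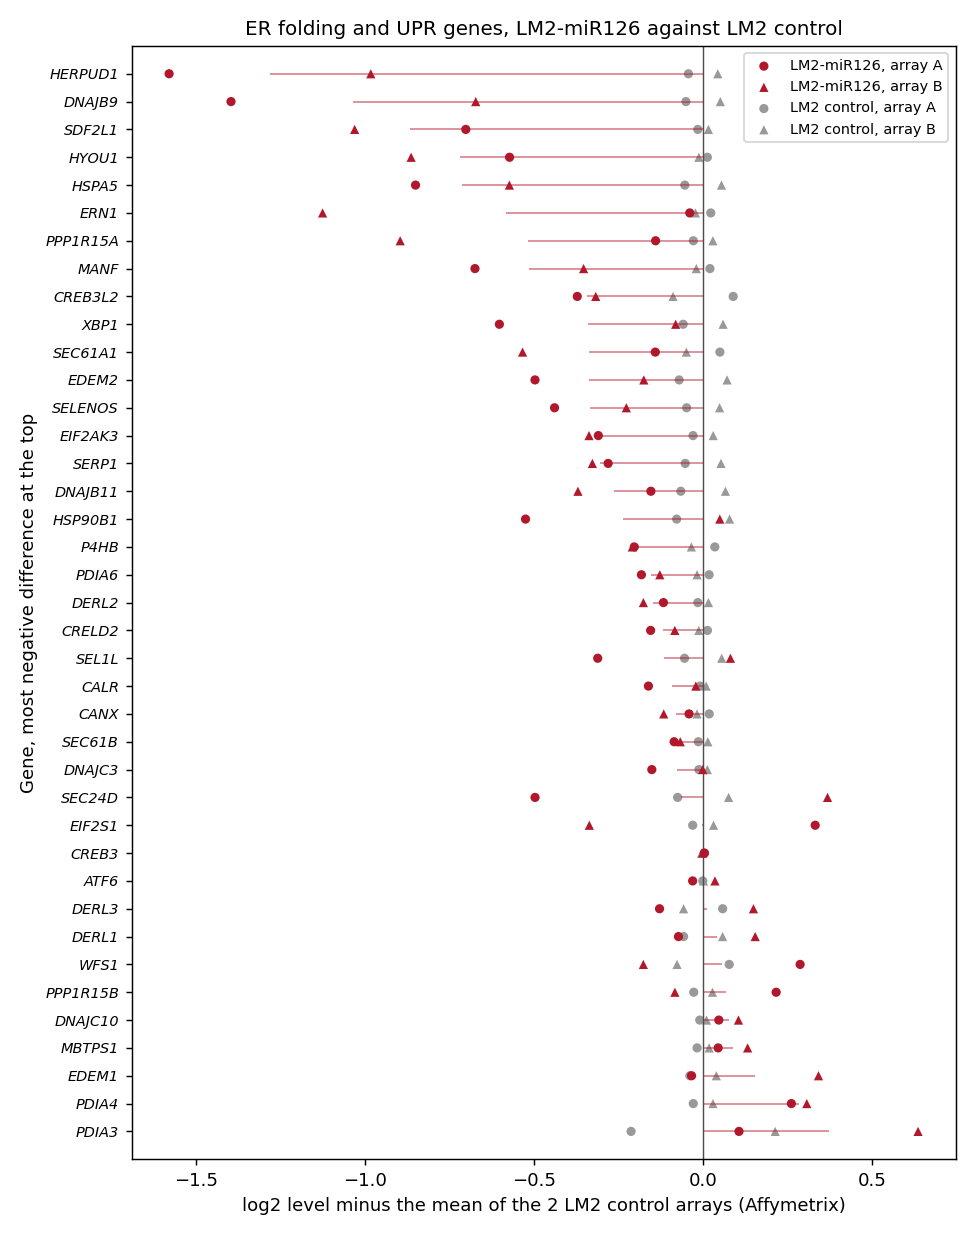
Level of each of 39 tested members on the 4 Affymetrix arrays, as log2 difference from the mean of the 2 LM2 control arrays. Red circles and triangles are LM2-miR126 arrays A and B, grey ones are LM2 control arrays A and B, and red lines run to the mean difference. In 23 genes both red points lie left of both grey points, with HERPUD1 at the top and PDIA3 at the bottom.

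Chaperones and their J-domain partners hold unfolded chains in the ER lumen. Of these 8 members, 5 lay lower on both LM2-miR126 arrays, 1 lay higher and 2 overlapped, with a median of -0.49 log2. This count and those of the groups below stand beside 19.0% lower and 21.4% higher over all genes tested. HSPA5 encodes BiP, the main ER chaperone of the HSP70 family and the regulator of the sensors. Its log2 level was 5.91 and 6.18 on LM2-miR126 arrays A and B, against 6.70 and 6.81 on control arrays A and B. Both LM2-miR126 arrays lay below both control arrays. The difference was -0.71 ± 0.11 log2 (SE, limma adjusted p = 0.462). A second HSPA5 probe differed by -0.60 log2.

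HYOU1, a large HSP70-related chaperone that helps BiP exchange nucleotide, had log2 levels of 4.74 and 4.45 in LM2-miR126 cells, against 5.32 and 5.30 in control cells. SDF2L1, a luminal partner of the BiP and ERdj3 complex, had 2.06 and 1.73 in LM2-miR126 cells, against 2.75 and 2.78 in control cells. In both genes the groups did not overlap and the control arrays lay close together. The differences were -0.72 ± 0.12 log2 for HYOU1 and -0.87 ± 0.16 log2 for SDF2L1 (SE), each with a limma adjusted p of 0.462.

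DNAJB9 encodes ERdj4, a J-domain partner of BiP and a known XBP1 target. Its log2 level was 2.31 and 3.04 in LM2-miR126 cells, against 3.66 and 3.76 in control cells. Array A was the lower LM2-miR126 array, and the groups did not overlap. The difference was -1.04 ± 0.26 log2 (SE, limma adjusted p = 0.484). All 3 DNAJB9 probes were lower, between -1.04 and -0.91 log2.

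The remaining J-domain partners differed less. DNAJB11, or ERdj3, lay lower on both arrays with a difference of -0.26 log2. DNAJC3, which also binds and inhibits PERK, overlapped at -0.08 log2. DNAJC10, the disulfide reductase ERdj5, had levels of 3.56 and 3.62 in LM2-miR126 cells, against 3.51 and 3.53 in control cells, and both LM2-miR126 arrays lay slightly above the control arrays, by 0.08 ± 0.11 log2 (SE, limma adjusted p = 0.894).

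HSP90B1 encodes GRP94, the ER member of the HSP90 family. Its log2 level was 3.70 and 4.27 in LM2-miR126 cells, against 4.15 and 4.30 in control cells. LM2-miR126 array A lay below the controls and array B between them, so the groups overlapped. The difference was -0.24 ± 0.21 log2 (SE, limma adjusted p = 0.814). A second, dimmer HSP90B1 probe went the other way, at 2.42 and 3.12 in LM2-miR126 cells against 1.94 and 2.12 in control cells (0.74 log2), so the direction of HSP90B1 depends on the probe.

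Lectin chaperones, disulfide isomerases and secreted folding factors showed smaller differences, with a median of -0.11 log2. Of 8 members, 6 lay lower on both arrays, 1 lay higher and 1 overlapped. MANF, a secreted stress-induced factor that binds BiP, differed by -0.51 log2, and P4HB, the classical protein disulfide isomerase, by -0.21 log2. PDIA6, an isomerase that also acts on the sensors, differed by -0.16 log2, CRELD2, a stress-induced ER factor, by -0.12 log2, CALR, the lectin calreticulin, by -0.09 log2 and its membrane relative CANX by -0.08 log2. P4HB and PDIA6 each had 1 probe of positive sign, at 0.11 log2, their other probes being negative. The direction of both lectins also depends on the probe. The other 3 CANX probes above the filter lay higher on both LM2-miR126 arrays, by 0.18 to 0.29 log2, and the other 2 CALR probes were positive, at 0.20 and 0.09 log2.

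The disulfide isomerases PDIA3 and PDIA4 had the most positive differences of the members. PDIA3, which works with the lectins on glycoproteins, had log2 levels of 4.53 and 5.06 in LM2-miR126 cells, against 4.21 and 4.64 in control cells. Its groups overlapped, at 0.37 ± 0.23 log2 (SE, limma adjusted p = 0.728). PDIA4 had 3.79 and 3.83 in LM2-miR126 cells, against 3.49 and 3.55 in control cells, and its groups did not overlap. The PDIA4 difference was 0.28 ± 0.11 log2 (SE, limma adjusted p = 0.627), but its second probe differed by -0.26 log2.

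Degradation genes were led by HERPUD1, a membrane scaffold of the retrotranslocation complex that is strongly induced by ER stress. Its log2 level was 3.76 and 4.36 in LM2-miR126 cells, against 5.30 and 5.39 in control cells. Both LM2-miR126 arrays lay well below both control arrays, array A furthest. The difference of -1.28 ± 0.21 log2 (SE, limma adjusted p = 0.462) was the largest of any member with 1 probe per gene, a control level 2.43 times that in LM2-miR126 cells. A second, much dimmer probe differed by -0.27 log2, and the mean of both probes by -0.78 log2, a smaller difference than that of DNAJB9.

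Of the 8 degradation members tested, 4 lay lower on both arrays, 0 higher and 4 overlapped. EDEM2, a mannose-trimming factor that marks glycoproteins for disposal, differed by -0.34 log2, SELENOS, a selenoprotein anchoring the p97 ATPase, by -0.33 log2, and DERL2, a derlin of the retrotranslocation channel, by -0.15 log2. SEL1L, the adaptor of the ubiquitin ligase complex, overlapped at -0.12 log2, and the derlins DERL1 and DERL3 overlapped at 0.04 and 0.01 log2. All 4 DERL1 probes above the filter were positive. Those at 0.15 and 0.37 log2, the last much dimmer, lay higher on both LM2-miR126 arrays. EDEM1, a relative of EDEM2, had 2.44 and 2.82 in LM2-miR126 cells, against 2.44 and 2.51 in control cells. Array B was the high EDEM1 array, the groups overlapped, and the difference was 0.15 ± 0.17 log2 (SE, limma adjusted p = 0.850).

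The 3 sensors had differences between -0.58 and 0.00 log2. ERN1, the gene of IRE1, had log2 levels of 1.45 and 0.37 in LM2-miR126 cells, against 1.51 and 1.47 in control cells. Its difference of -0.58 ± 0.36 log2 (SE, limma adjusted p = 0.728) came mostly from LM2-miR126 array B, and without that array it was -0.04 log2. The other 2 ERN1 probes above the filter differed by -0.11 and 0.17 log2, and the mean of the probes by -0.17 log2. EIF2AK3, the gene of PERK, had 1.13 and 1.10 in LM2-miR126 cells, against 1.41 and 1.47 in control cells. The EIF2AK3 groups did not overlap, at -0.32 ± 0.11 log2 (SE, limma adjusted p = 0.583).

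ATF6 had 3.33 and 3.40 in LM2-miR126 cells, against 3.36 and 3.36 in control cells. Its groups overlapped, and its difference was 0.00 ± 0.11 log2 (SE, limma adjusted p = 0.999), with a 95% interval from -0.28 to 0.28 log2. XBP1 had 3.15 and 3.67 in LM2-miR126 cells, against 3.69 and 3.81 in control cells. Only LM2-miR126 array A stood clearly low for XBP1, array B lying just under the controls. The difference was -0.34 ± 0.20 log2 (SE, limma adjusted p = 0.725), and spliced and unspliced XBP1 mRNA were not separated here.

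The other regulators gave 1 member lower, 1 higher and 1 overlapping. CREB3L2, a membrane-bound transcription factor cut like ATF6, differed by -0.35 log2 with no overlap, and CREB3, its relative, by 0.00 log2 with overlap. MBTPS1, the Golgi protease that makes the first cut in ATF6, had 3.04 and 3.13 in LM2-miR126 cells, against 2.98 and 3.02 in control cells. Both LM2-miR126 arrays lay just above the controls for MBTPS1, by 0.09 ± 0.12 log2 (SE, limma adjusted p = 0.883).

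PPP1R15A encodes GADD34, the stress-induced phosphatase subunit that reverses eIF2 alpha phosphorylation. Its log2 level was 3.78 and 3.02 in LM2-miR126 cells, against 3.89 and 3.95 in control cells. The groups did not overlap, but array A lay close to the controls and array B far below. The difference was -0.52 ± 0.26 log2 (SE, limma adjusted p = 0.695), and -0.14 log2 without array B. EIF2S1, which encodes eIF2 alpha itself, and PPP1R15B, the constitutive subunit, overlapped at 0.00 and 0.07 log2.

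In the group of translocon, export and ER calcium genes, 3 of 5 members lay lower on both arrays and 2 overlapped. SEC61A1, the pore of the translocon, differed by -0.34 log2, SERP1, which stabilises membrane proteins at the translocon under stress, by -0.30 log2, and SEC61B, a small translocon subunit, by -0.08 log2. SEC24D, a cargo adaptor of COPII vesicles, overlapped at -0.06 log2, and WFS1, an ER membrane protein linked to calcium, overlapped at 0.06 log2.

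Over single probes, 37 of 85 member probes above the filter lay lower on both LM2-miR126 arrays and 11 higher, against 19.5% and 20.4% of the 23063 probes tested. Of 25 members with several probes above the filter, 12 had all probes of 1 sign, 9 of them negative. Above the 75th percentile of all probes by level, 21 of 36 members (58.3%) lay lower, against 22.0% of 7804 genes.

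The promoter matches were set beside these values. Of 11 members with an ERSE or ERSE-II, 10 (90.9%) lay lower on both LM2-miR126 arrays, with a median of -0.30 log2, and the exception was HSP90B1. Of 24 tested members with a window and neither element, 13 (54.2%) lay lower, with a median of -0.13 log2. Among other genes with neither, 18.9% lay lower. Of 20 other genes with a match, 6 lay lower and 6 higher, with a median of 0.01 log2. For ERSE alone, the median was -0.20 log2 over the 8 members with it and -0.21 log2 over the 27 without. CALR, CANX and PDIA6, among the 10 lower, had probes of both signs. All 3 members with ERSE-II, which are HERPUD1, SDF2L1 and HYOU1, were among the 5 largest differences, and DNAJB9 was the 1 of those 5 with no match. These counts describe the windows and carry no test.

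Other genes of the secretory pathway were counted from further lists, with no gene passing the test in any of them. Both LM2-miR126 arrays lay lower in 8 of 31 further ER folding enzymes (25.8%), 3 of 22 further degradation genes (13.6%), 7 of 25 genes of translocation and oligosaccharide transfer (28.0%) and 3 of 14 further sensors and regulators (21.4%). The COPII export and retrieval list had 9 of 22 (40.9%). Over all genes tested, 19.0% lay lower and 21.4% higher. Both arrays lay higher in 8 folding enzymes, 1 degradation gene, 5 translocation genes, 3 further regulators and 5 COPII genes. Medians of these 5 lists lay between -0.05 and -0.01 log2.

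Examples went both ways in those lists. FKBP9, a prolyl isomerase of the ER, differed by -0.51 log2 and TMX3, a membrane disulfide isomerase, by 0.70 log2. CREB3L1, a relative of CREB3L2, differed by -0.58 log2. The oligosaccharyltransferase subunits RPN1 and STT3A lay higher on both LM2-miR126 arrays, by 0.63 and 0.52 log2, as did the coat protein gene COPG1, by 0.45 log2. PREB, the exchange factor that starts COPII coats, differed by -0.35 log2. UBE2J1 and SEC63, a ubiquitin-conjugating enzyme and a partner of BiP at the translocon, differed by -0.30 and -0.23 log2.

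The ATF4 arm, which PERK and other eIF2 alpha kinases feed, had 9 of 14 genes (64.3%) lower on both LM2-miR126 arrays. Over all genes that share was 19.0%. Another 2 genes lay higher on both arrays, against 21.4% of all genes, and the list's median was -0.51 log2. NUPR1, a stress-induced chromatin regulator, had 1.09 and 1.58 in LM2-miR126 cells, against 2.81 and 2.97 in control cells. ASNS, asparagine synthetase, had 3.17 and 2.99 in LM2-miR126 cells, against 4.32 and 4.31 in control cells. The groups overlapped in neither gene, and the differences were -1.55 log2 for NUPR1 (limma adjusted p = 0.462) and -1.24 log2 for ASNS (limma adjusted p = 0.458).

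**Figure D2:**
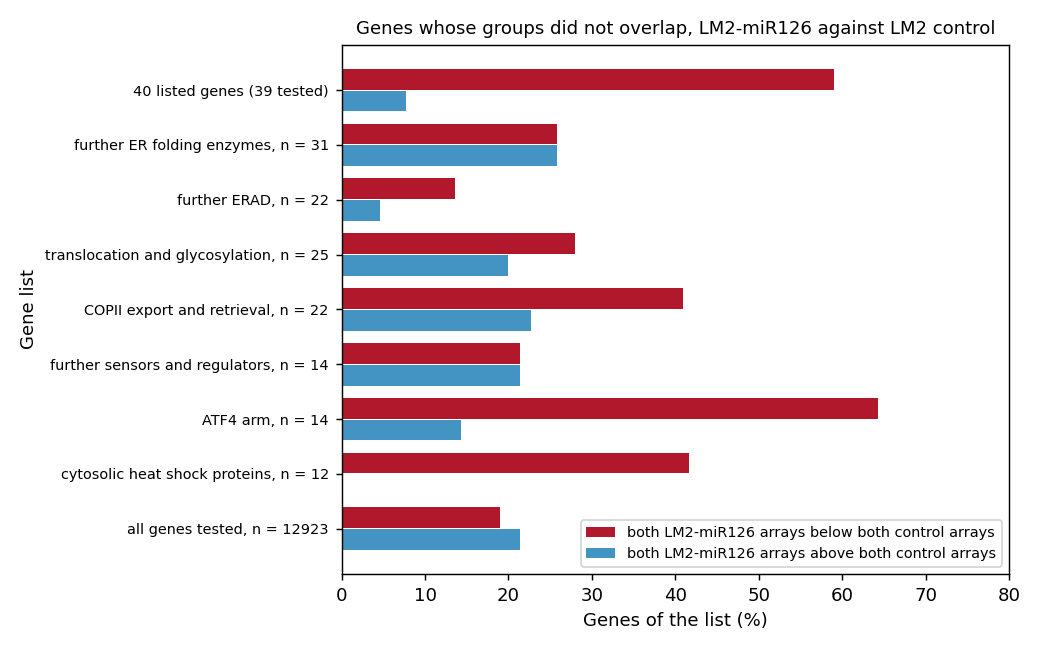
Share of tested genes, in percent, whose groups did not overlap between LM2-miR126 and LM2 control cells, for the 40 listed genes, 7 further lists and all genes. Red bars give genes lower on both LM2-miR126 arrays and blue bars genes higher on both. The listed genes (59.0% lower) and the ATF4 arm (64.3% lower) have the longest red bars, against 19.0% over all genes.

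The second comparison asked how the same genes differed between LM2 and parental MDA-MB-231 cells. Here the members lay on both sides of no difference. Of 36 tested, 11 (30.6%) lay higher on both LM2 arrays, against 15.9% of the 12490 genes tested, 8 (22.2%) lay lower, against 28.1%, and 17 overlapped. Median differences were -0.03 log2 over the members and -0.04 log2 over all genes.

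In limma, 0 members passed the adjusted threshold in either direction, where 0.841% of all genes were called higher and 1.47% lower. At an unadjusted p under 0.05 there were 2 members higher, SELENOS and SEC61B (5.56%, against 4.61% of all genes), and 0 lower, against 9.82%. MDA-MB-231 arrays differed from each other by 0.366 log2 on average over the members, and LM2 arrays by 0.247 log2. Over all genes these spreads were smaller, at 0.248 log2 for MDA-MB-231 and 0.188 log2 for LM2 arrays.

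**Figure D3:**
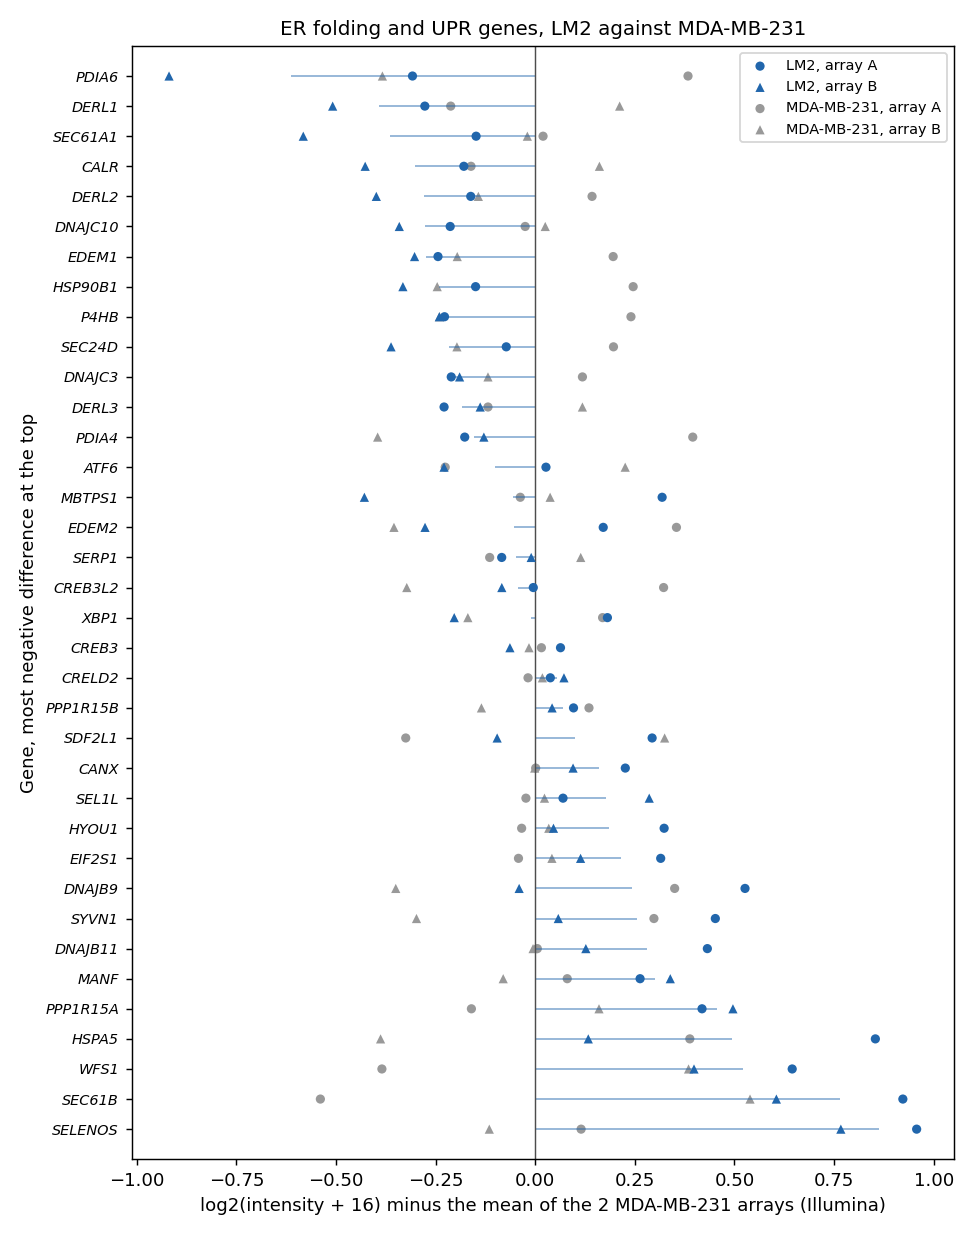
Level of each of 36 tested members on the 4 Illumina arrays, as difference in log2(intensity + 16) from the mean of the 2 MDA-MB-231 arrays. Blue circles and triangles are LM2 arrays A and B, grey ones are those of MDA-MB-231, and blue lines run to the mean difference. PDIA6 is at the top and SELENOS at the bottom, and grey points of 1 gene often lie as far apart as the groups.

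SELENOS had the largest difference of the members. Its log2(intensity + 16) was 12.61 and 12.42 in LM2 cells, against 11.77 and 11.54 in MDA-MB-231 cells, array A first in each. The groups were clearly separated. The difference was 0.86 ± 0.24 log2 (SE, limma adjusted p = 0.0968), and a second probe above the filter gave 0.93 log2.

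SEC61B had 12.35 and 12.03 in LM2 cells, against 10.89 and 11.96 in MDA-MB-231 cells. MDA-MB-231 array A was far below the other 3 arrays. The difference was 0.76 ± 0.33 log2 (SE, limma adjusted p = 0.322). Leaving out MDA-MB-231 array B gave 1.30 log2 (limma adjusted p = 0.0101), and leaving out array A of that line gave 0.22 log2. With 1 MDA-MB-231 array left, such a p rests on the spread of the LM2 arrays alone, and the lone array is assumed to vary like them.

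WFS1 had 11.30 and 11.05 in LM2 cells, against 10.27 and 11.04 in MDA-MB-231 cells. MDA-MB-231 array A was the low one again, array B nearly equalling LM2 array B. The difference was 0.52 ± 0.28 log2 (SE, limma adjusted p = 0.453), with 0.14 log2 when array A of MDA-MB-231 was left out and 0.91 log2 when array B was. PPP1R15A had 12.11 and 12.18 in LM2 cells, against 11.53 and 11.85 in MDA-MB-231 cells, without overlap, at 0.46 ± 0.24 log2 (SE, limma adjusted p = 0.427).

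Among the chaperones, HSPA5 had 10.88 and 10.16 in LM2 cells, against 10.41 and 9.64 in MDA-MB-231 cells. Array A was the higher array in both lines, and the groups overlapped. The difference was 0.49 ± 0.31 log2 (SE, limma adjusted p = 0.539), with 0.88 log2 when array A of MDA-MB-231 was left out and 0.11 log2 when array B was. DNAJB9 had 9.38 and 8.82 in LM2 cells, against 9.21 and 8.51 in MDA-MB-231 cells, with the same overlap (0.24 ± 0.28 log2, SE, limma adjusted p = 0.775).

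HSP90B1 had 13.78 and 13.60 in LM2 cells, against 14.17 and 13.68 in MDA-MB-231 cells, and overlapped at -0.24 ± 0.25 log2 (SE, limma adjusted p = 0.746). Of the other chaperones, DNAJB11 and HYOU1 lay higher on both LM2 arrays, by 0.28 and 0.18 log2. DNAJC3 and DNAJC10 lay lower, by -0.20 and -0.28 log2, and SDF2L1 overlapped at 0.10 log2. A second DNAJC10 probe lay higher on both LM2 arrays, by 0.10 log2. For HYOU1 the closest arrays were nearly equal, at 8.77 on LM2 array B against 8.76 on MDA-MB-231 array B. A second HYOU1 probe overlapped, at 0.16 log2.

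Negative differences were led by PDIA6, at 8.68 and 8.07 in LM2 cells, against 9.38 and 8.61 in MDA-MB-231 cells. LM2 array A lay above MDA-MB-231 array B, so the groups overlapped. The difference was -0.61 ± 0.29 log2 (SE, limma adjusted p = 0.368). Leaving out MDA-MB-231 array B gave -0.997 log2 (limma adjusted p = 0.0483), and leaving out array A of that line gave -0.23 log2 (limma adjusted p = 0.720). The 95% interval from all 4 arrays ran from -1.25 to 0.02 log2.

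DERL1 had 9.95 and 9.72 in LM2 cells, against 10.02 and 10.44 in MDA-MB-231 cells (-0.39 ± 0.24 log2, SE, limma adjusted p = 0.514). SEC61A1 had 11.84 and 11.41 in LM2 cells, against 12.01 and 11.97 in MDA-MB-231 cells (-0.37 ± 0.24 log2, SE, limma adjusted p = 0.565). Both genes were lower on both LM2 arrays, and in both LM2 array B was the lowest of the 4. CALR had 9.14 and 8.89 in LM2 cells, against 9.16 and 9.48 in MDA-MB-231 cells (-0.30 ± 0.22 log2, SE, limma adjusted p = 0.608). DERL2 had 8.76 and 8.52 in LM2 cells, against 9.06 and 8.77 in MDA-MB-231 cells (-0.28 ± 0.21 log2, SE, limma adjusted p = 0.625). CALR and DERL2 were separated between the groups by a few hundredths of a log2 unit at the closest arrays.

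All 5 tested members among the sensors, their transcription factors and the ATF6 protease overlapped between the lines. XBP1 had 11.41 and 11.03 in LM2 cells, against 11.40 and 11.06 in MDA-MB-231 cells (-0.01 ± 0.25 log2, SE, limma adjusted p = 0.992). ATF6 had 9.49 and 9.23 in LM2 cells, against 9.23 and 9.68 in MDA-MB-231 cells (-0.10 ± 0.24 log2, SE, limma adjusted p = 0.906). CREB3, CREB3L2 and MBTPS1 lay within 0.06 log2 of no difference. ERN1, at 6.62 and 6.67 in LM2 cells against 6.59 and 6.58 in MDA-MB-231 cells, and EIF2AK3, at 6.66 and 6.57 in LM2 cells against 6.71 and 6.99 in MDA-MB-231 cells, were below the filter and not tested.

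The remaining members lay closer together. MANF, EIF2S1, SEL1L, CANX and CRELD2 lay higher on both LM2 arrays, by 0.30, 0.21, 0.18, 0.16 and 0.06 log2. EDEM1 and DERL3 lay lower on both LM2 arrays, by -0.27 and -0.18 log2. SYVN1, the ubiquitin ligase HRD1, overlapped at 0.25 log2, and P4HB, SEC24D, PDIA4, EDEM2, SERP1 and PPP1R15B overlapped between -0.23 and 0.07 log2. Of 8 members with several Illumina probes above the filter, 4 had all probes of 1 sign, and CANX, DERL2, DNAJC10 and XBP1 did not. PDIA3, below the filter, had 6.65 and 6.61 in LM2 cells, against 6.65 and 6.49 in MDA-MB-231 cells.

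Of the further lists, 5 genes passed the test in LM2 cells. These were 1 of 32 further folding enzymes, 1 of 25 translocation genes, 1 of 11 further regulators and 2 of 13 ATF4 arm genes. Over all genes tested, 0.841% were called higher and 1.47% lower. PDIA5, a disulfide isomerase, fell by 0.88 log2 (limma adjusted p = 0.0342), and MBTPS2, the protease that makes the second cut in ATF6, fell by 0.999 log2 (limma adjusted p = 0.0261). SEC11A, a signal peptidase subunit, rose by 1.07 log2 (limma adjusted p = 0.0356). In the ATF4 arm, the transcription factor gene CEBPB rose by 1.18 log2 (limma adjusted p = 0.0266) and NUPR1 by 0.82 log2 (limma adjusted p = 0.0204). Against 28.1% of all genes, the share lower on both LM2 arrays was 40.6% of 32 further folding enzymes, 23.8% of 21 further degradation genes, 32.0% of 25 translocation genes, 20% of 20 COPII genes, 36.4% of 11 further regulators and 7.69% of 13 ATF4 arm genes. The folding enzymes included PRDX4, an ER peroxiredoxin, at -0.93 log2 (limma adjusted p = 0.122). Both LM2 arrays lay higher in 4 of 32 further folding enzymes, 2 of 21 degradation genes and 3 of 25 translocation genes. They also lay higher in 5 of 20 COPII genes, 2 of 11 further regulators and 5 of 13 ATF4 arm genes. Over all genes tested, 15.9% lay higher. The median of the ATF4 arm was 0.24 log2.

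The 2 comparisons share no array, so their values can be set side by side for the 35 members tested in both. There were 13 members (37.1%) with a positive LM2 difference and a negative miR-126 difference, against 20.6% of 9773 genes. For 8 members (22.9%), against 4.49% of genes, both differences were also free of overlap. These were HYOU1, DNAJB11, CANX, CRELD2, MANF, SELENOS, PPP1R15A and SEC61B, with CANX depending on the probe in both tables, since its second Illumina probe overlapped at -0.05 log2. The second HYOU1 Illumina probe also overlapped, at 0.16 log2. Opposite signs in either order occurred in 20 members (57.1%), against 52.3% of genes. Each comparison alone already had a raised share of members. This was 30.6% higher in LM2 cells (15.9% of all genes) and 59.0% lower in LM2-miR126 cells (19.0%). A raised joint share can come from these shares alone, and a link between the comparisons was not tested. Among the 8, CRELD2 differed by only 0.06 and -0.12 log2, and SEC61B by -0.08 log2 in LM2-miR126 cells.

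**Figure D4:**
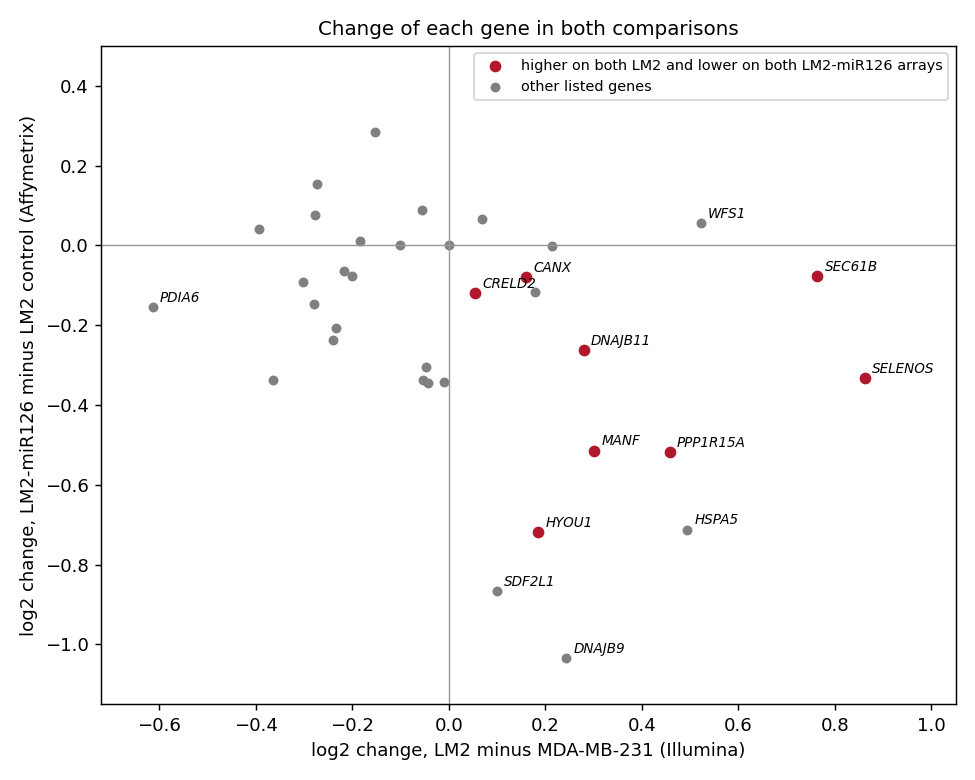
Difference of each of 35 members in LM2-miR126 against LM2 control cells (vertical axis, log2, Affymetrix) and in LM2 against MDA-MB-231 cells (horizontal axis, log2, Illumina). Red points are the 8 members higher on both LM2 arrays and lower on both LM2-miR126 arrays. SELENOS and SEC61B lie furthest right, and DNAJB9 and SDF2L1 lowest.

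Cell identity and array quality were read from fixed markers. VIM, CD44, AXL, KRT7, KRT8 and KRT18 lay at the 87th percentile of level or above in both tables, and PGR lay below the filter in both. ERBB2 and EPCAM, listed as low in these cells, lay above it in both. Of the markers of fibroblasts, endothelial cells, blood, plasma cells and melanocytes, COL3A1, CDH5, KDR, PTPRC, JCHAIN and MLANA were below the filter in both tables, and COL1A1, COL1A2, DCN, PECAM1, CD14 and SDC1 were above it in both. In limma, COL1A1 rose in LM2 cells by 1.94 log2 (adjusted p = 0.00134) and the epithelial cadherin gene CDH1 fell by 0.54 log2 (adjusted p = 0.0340). Summed plasma cell markers (3 of 3 measured) were 9.97 to 19.7 in LM2-miR126 cells, against 14.2 to 15.5 in control cells, and 589 to 592 in LM2 cells, against 673 to 706 in MDA-MB-231 cells. Summed endothelial markers (4 of 4 measured) were 5.29 to 6.27 in LM2-miR126 cells, against 6.54 to 6.61 in control cells, and 401 to 427 in LM2 cells, against 344 to 369 in MDA-MB-231 cells. Summed fibroblast markers (6 of 6) were 30.2 to 49.2 in LM2-miR126 cells, against 34.2 to 38.3 in control cells, and 821 to 1020 in LM2 cells, against 591 to 770 in MDA-MB-231 cells. The log2 ratio of 3' to 5' ACTB probes was 0.193 and 0.117 in LM2-miR126 cells, against 0.263 and 0.226 in control cells, lower on both LM2-miR126 arrays as in 23 members. The GAPDH ratio overlapped, at -0.0527 and -0.126 in LM2-miR126 cells, against -0.0789 and -0.108 in control cells. The part of these ratios and of the marker sums in the results was not tested.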

How the data were processed

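Expression was measured in total RNA of 8 arrays, grouped by their titles. For each platform the authors deposited 1 table of linear intensity values. How it was normalized, and with what software, is not given in the sources used here. Illumina medians as deposited were all 94.4, with lowest values of 43.2 to 46.5, so the values keep a floor. Whether background had been subtracted is not known. The deposited Affymetrix intensities have a median of 1 on each array. No detection values were used, and the number of arrays limits the precision.

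Probe names came from the platform annotation and RefSeq (28098 Illumina and 41091 Affymetrix probes with 1 symbol, 13 and 1801 with several, 20692 and 11721 with none). Probes with several genes or none were left out. The probe of highest mean stood for a gene, and a gene was tested where that mean exceeded the median over all probes. Illumina values were taken as log2(value + 16) on the deposited scale, and Affymetrix values as log2 after quantile normalization, since their quartiles differed by 0.165 log2. Groups were compared with limma 3.58.1 in R 4.3.3 (eBayes with a variance trend, two-sided, Benjamini-Hochberg at 0.05 over all genes tested). With 2 arrays a group, the smallest exact permutation p is 0.3333. The fit was tested on simulated data in which both groups had the same spread. That does not cover the unequal spread of the 2 Affymetrix groups.

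Members and lists were chosen with earlier results of these data known. Values per array were given for members past the threshold, for the 5 largest differences each way and for HSPA5, HSP90B1, HERPUD1, DNAJB9, XBP1, ATF6, ERN1, EIF2AK3 and PPP1R15A. From other lists, genes past the threshold and the 2 largest differences were eligible. Alternatives covered scaling, pseudocount, filter, probe rule, variance prior, replicate block and each array left out. Figures were drawn with matplotlib 3.10.9.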

Additional observations from a re-analysis of the deposited data

How the results depend on the processing

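In LM2-miR126 cells, the count of members lower on both arrays was 18 to 23 over 10 alternatives, and the differences of HERPUD1, DNAJB9, SDF2L1, HYOU1 and HSPA5 stayed negative in all of them and with each array left out. On the deposited scale 1 member, not 3, lay higher on both arrays, and ATF6 was at -0.0069 log2. With probes averaged the members' median was -0.121 log2, HSP90B1 was at 0.249 log2, ATF6 at -0.0317 log2, HERPUD1 at -0.778, ERN1 at -0.172, XBP1 at -0.123 and PDIA4 at 0.0112. With each array left out the ranges were -0.163 to -0.128 log2 for the median, -0.526 to 0.0494 for HSP90B1, -0.0310 to 0.0351 for ATF6 -0.0341 to 0.342 for EDEM1, -1.40 to -0.673 for DNAJB9, -1.13 to -0.0396 for ERN1, -0.897 to -0.141 for PPP1R15A, -0.603 to -0.0812 for XBP1 and 0.106 to 0.636 for PDIA3. Genes called ranged from 0 to 2559 higher and 0 to 2337 lower, and members from 0 to 4 and 0 to 19. The high ends came without LM2-miR126 replicate A (17 members lower) or B (19 lower), where the lone array is assumed to vary like the close control arrays.

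In LM2 cells, the members' median was 0.0665 log2 after quantile normalization and -0.0896 to 0.0870 with each array left out. Genes called higher and lower numbered 66 and 118 with a gene's probes averaged and 41 and 66 without a variance trend. They ranged over 46 to 294 and 40 to 397 with each array left out, and members over 0 to 1 each way, SEC61B and PDIA6 passing without MDA-MB-231 replicate B, where the spread is that of the LM2 arrays alone. ATF6 was at 0.0150 and XBP1 at 0.122 after quantile normalization, and XBP1 at 0.112 with probes averaged. Left-out ranges were -0.327 to 0.125 for ATF6, -0.203 to 0.181 for XBP1, -0.107 to 0.593 for DNAJB9, -0.487 to 0.00504 for HSP90B1, 0.105 to 0.881 for HSPA5, 0.137 to 0.906 for WFS1, -0.997 to -0.230 for PDIA6, -0.605 to -0.181 for DERL1, -0.582 to -0.148 for SEC61A1, -0.464 to -0.142 for CALR and -0.423 to -0.138 for DERL2. The cause of these shifts was not tested.

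The letters A and B are not stated to pair samples, and deviations of same-letter arrays correlated at 0.128 (Illumina) and 0.0598 (Affymetrix). With the replicate block, 209 genes were called higher and 411 lower in LM2 cells, with 0 members. In LM2-miR126 cells the replicate block gave 15 and 36 genes, with 4 members lower, namely HSPA5 (limma adjusted p = 0.00681), HYOU1 (0.0351), DNAJB9 (0.0326) and HERPUD1 (0.00191).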

Other observations

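ERSE and ERSE-II matches also occur outside the listed genes. Of 20 such genes tested in LM2-miR126 against LM2 control cells, 6 (30%) lay lower on both LM2-miR126 arrays and 6 higher, with a median of 0.01 log2, against 1958 of 10371 genes (18.9%) with neither element. FICD, the enzyme that modifies BiP with AMP, was among the 6 lower genes at -0.38 log2 (limma adjusted p = 0.589). ERO1B, an ER oxidase, overlapped at -0.18 log2. In LM2 against MDA-MB-231 cells, 1 of 10 tested members with a match (10%) lay lower and 3 higher, 5 of 23 members with neither (21.7%) lay lower and 8 higher, 6 of 18 other genes with a match (33.3%) lay lower and 3 higher, and 28.2% of other genes with neither lay lower.

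Heat shock proteins of the cytosol and mitochondria, another folding system, had 5 of 12 genes (41.7%) lower on both LM2-miR126 arrays and 0 higher, against 19.0% and 21.4% of all genes, with a median of -0.05 log2. HSPB1, a small heat shock protein, differed by -0.46 log2 and HSF1, the master regulator of the cytosolic heat shock response, by -0.41 log2. In LM2 cells, 4 of 15 (26.7%) lay lower than in MDA-MB-231 cells, close to the 28.1% of all genes, with HSPD1, the mitochondrial chaperonin, at -0.58 log2 and HSPB1 at -0.56 log2. Another 1 of the 15 lay higher on both LM2 arrays, against 15.9% of all genes.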
